A study of Homo sapiens with 4 samples.

Results

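The expression profile of TCam-2, a cell line from a seminoma, was set directly against that of GCT27, a cell line from an embryonal carcinoma, with 1 array each. The values of these lines were compared gene by gene, and the genes are described by the size and direction of their difference in both directions. Of 19775 genes with a probe set assigned to them alone, 13841 reached a minimum intensity in at least 1 of the lines and were compared. Of these, 535 genes (3.87%) were at least 4-fold higher in TCam-2 and 565 (4.08%) at least 4-fold higher in GCT27.

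The study profiled 4 human testicular germ cell tumour lines on Affymetrix expression arrays and, in parallel, their DNA methylation on arrays that are not used here, to find genes silenced in non-seminoma lines. Besides TCam-2 and GCT27 it holds NT2D1, labelled teratoma and derived from a lung metastasis, and GCT44, labelled yolk sac tumour. TCam-2 was grown in RPMI-1640 and GCT27 in Dulbecco's Modified Eagle Medium, each with 10% fetal bovine serum and 1% Penicillin/Streptomycin, so medium and tumour type cannot be told apart. The medium of TCam-2 also differed from that of NT2D1 and GCT44. Each type is represented by 1 line and each line by 1 array. No test was therefore possible, a difference has no replicate check, and the values describe these lines and not seminomas or embryonal carcinomas as tumours.

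Seminoma and embryonal carcinoma both arise from germ cell neoplasia in situ, whose cells resemble primordial germ cells that did not mature. Seminoma cells keep a programme close to that of primordial germ cells, in which SOX17, PRDM1 and TFAP2C act together. Embryonal carcinoma cells resemble the pluripotent cells of the early embryo, use SOX2 in place of SOX17 as the partner of the pluripotency factor POU5F1, and carry a more methylated genome.

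Windows around a listed transcription start are shown for 6 genes on which the comparison turns. The study asked which genes are silenced, and CpG sites are where DNA is methylated. PRDM1 and CXCR4 were higher in TCam-2, and SOX2, ZIC2, GDF3 and DNMT3B were higher in GCT27. The genes were chosen after their values were seen, and SOX17 and TFAP2C had no listed window. Each window runs from 250 bases before to 50 bases after a transcription start in RefSeq (GRCh38.p14), 5′ to 3′ in the direction of the gene, and where a gene has several starts the first listed was taken. Capitals mark each CpG. The windows lie at chr6:106086086-106086385 on the plus strand, chr2:136118100-136118399 on the minus strand, chr3:181711675-181711974 on the plus strand, chr13:99981534-99981833 on the plus strand, chr12:7695726-7696025 on the minus strand and chr20:32779602-32779901 on the plus strand.
PRDM1: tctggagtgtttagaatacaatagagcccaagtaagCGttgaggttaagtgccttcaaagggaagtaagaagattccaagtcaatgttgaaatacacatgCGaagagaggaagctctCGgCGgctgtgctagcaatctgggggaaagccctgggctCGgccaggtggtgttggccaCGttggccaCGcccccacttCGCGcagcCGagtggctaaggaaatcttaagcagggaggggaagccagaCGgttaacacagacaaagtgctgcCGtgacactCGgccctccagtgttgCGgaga
CXCR4: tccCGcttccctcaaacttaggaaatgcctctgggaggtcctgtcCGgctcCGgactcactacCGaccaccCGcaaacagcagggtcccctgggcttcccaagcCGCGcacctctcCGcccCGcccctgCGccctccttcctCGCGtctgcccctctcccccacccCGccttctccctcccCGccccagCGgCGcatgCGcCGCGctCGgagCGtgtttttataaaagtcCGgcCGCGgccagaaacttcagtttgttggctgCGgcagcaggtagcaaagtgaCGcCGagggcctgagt
SOX2: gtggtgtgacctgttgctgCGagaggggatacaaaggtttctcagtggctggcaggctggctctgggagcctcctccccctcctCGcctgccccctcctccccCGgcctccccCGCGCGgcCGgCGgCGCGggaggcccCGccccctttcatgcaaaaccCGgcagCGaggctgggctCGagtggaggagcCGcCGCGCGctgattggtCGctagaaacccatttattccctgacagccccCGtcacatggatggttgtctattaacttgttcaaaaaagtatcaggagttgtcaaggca
ZIC2: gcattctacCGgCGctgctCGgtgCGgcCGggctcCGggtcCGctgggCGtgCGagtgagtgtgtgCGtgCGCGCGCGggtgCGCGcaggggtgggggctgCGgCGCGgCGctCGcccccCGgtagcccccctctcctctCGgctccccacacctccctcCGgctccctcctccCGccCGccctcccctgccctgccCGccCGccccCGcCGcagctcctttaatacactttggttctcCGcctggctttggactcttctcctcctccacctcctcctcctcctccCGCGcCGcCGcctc
GDF3: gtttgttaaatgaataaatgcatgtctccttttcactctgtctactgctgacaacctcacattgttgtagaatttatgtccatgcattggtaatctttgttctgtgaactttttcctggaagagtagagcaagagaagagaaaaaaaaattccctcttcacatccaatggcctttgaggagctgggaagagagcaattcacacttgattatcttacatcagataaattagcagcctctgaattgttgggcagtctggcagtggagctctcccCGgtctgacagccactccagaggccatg
DNMT3B: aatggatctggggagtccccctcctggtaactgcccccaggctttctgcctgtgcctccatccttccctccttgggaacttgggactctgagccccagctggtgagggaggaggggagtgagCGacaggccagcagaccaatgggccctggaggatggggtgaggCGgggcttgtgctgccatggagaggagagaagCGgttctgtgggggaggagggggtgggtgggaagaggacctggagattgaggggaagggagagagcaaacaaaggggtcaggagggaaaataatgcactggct

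The windows range widely in CpG content. That of ZIC2 holds 35 CpG sites, that of CXCR4 27, that of SOX2 20 and that of PRDM1 14. The windows of DNMT3B and GDF3 hold 3 and 1. A gene can have further starts that are not listed, so these counts describe the windows shown and not every promoter of the gene. Over all 35116 windows of this length the median was 14, with quartiles of 4 and 28. Genes of both directions thus had windows above the median and windows at or below it, and only the window of ZIC2 lay above the upper quartile. The motif GCCNNNGGC of AP-2 factors, which reads the same on both strands, had 1 match each in the windows of CXCR4, SOX2 and PRDM1, and it occurs in 23.2% of all windows. A wider comparison of windows between the directions was void, because only 73.3% of the genes higher in TCam-2 and 76.3% of those higher in GCT27 had a listed window, under the 80% set as a minimum.

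Intensities are in the arbitrary units of the deposited values, on a linear scale with an equal trimmed mean on every array. The median intensity was 73.6 units in TCam-2 and 79.3 in GCT27. Values below 76.4 units, the median of all values and called the floor here, were set to it, since low intensities have no reliable order. A fold difference with 1 line below the floor is a lower limit and is written as at least that fold. Where the lower value lay just above the floor, as for several of the widest differences, the fold and its rank are inexact. Differences are given as the log2 of TCam-2 over GCT27, so positive values are higher in TCam-2. The 3' to 5' intensity ratio, a measure of RNA integrity, was 2.49 for ACTB in TCam-2 and 2.97 in GCT27, and 1.09 and 0.90 for GAPDH. In NT2D1 and GCT44, set beside the pair below, it was 2.83 and 4.21 for ACTB and 0.98 and 1.04 for GAPDH. GCT44 thus had the highest ratio for ACTB, and its part in the results was not tested. 18 probe sets for spiked-in hybridization controls lay 0.25 higher on the log2 scale in TCam-2, and their part in the results was not tested beyond the rescaling given below.

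Most genes had similar values in the lines. The log2 difference was under 1 for 73.4% of the compared genes, with a median of -0.04 and quartiles of -0.57 and 0.50. The 535 genes at least 4-fold higher in TCam-2 made up 3.87% of those compared and the 565 genes higher in GCT27 made up 4.08%. These shares are the background for every gene list below, where a gene counted as higher is at least 4-fold higher. The lists were chosen with earlier results of these data known, so their shares and medians are descriptions and not independent support. Both lines were above the floor for 347 genes in each direction. Differences of at least 16-fold were found for 79 genes in favour of TCam-2 and 77 in favour of GCT27. The narrowest difference that counted was 2.0011 on the log2 scale and the widest that did not was 1.9991, that of CYB5D1, a gene with a cytochrome b5 domain, with 154 units in TCam-2 and 615 in GCT27. With the arrays scaled to the spiked-in controls, the median over all genes became -0.26 and the counts 449 higher in TCam-2 and 757 higher in GCT27, so the balance between the directions depends on the scaling.

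**Figure D1:**
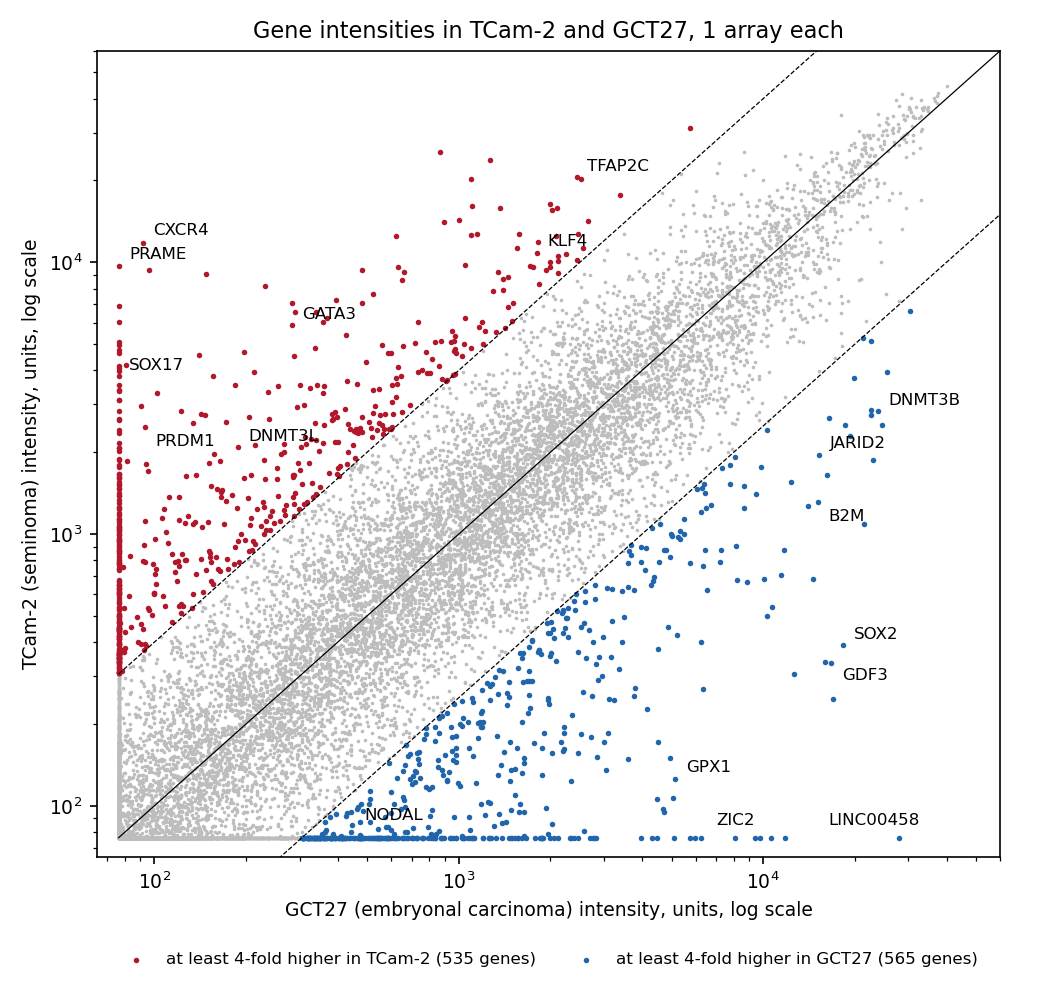
Intensity of 13841 genes in GCT27 (x axis) and TCam-2 (y axis), in units on log axes, with values below the floor drawn at the floor; the solid line marks equality and the dashed lines a 4-fold difference. Red points are the 535 genes at least 4-fold higher in TCam-2 and blue points the 565 at least 4-fold higher in GCT27, while most genes lie between the dashed lines.

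Genes with further probe sets gave a check of the direction within the same arrays. Of the genes higher in TCam-2, 165 had another probe set that reached 306 units (4 times the floor) in 1 of the lines, and for 155 of them every such probe set differed in the same direction by a log2 value of 1 or more. The numbers for GCT27 were 157 and 149. In neither direction did such a probe set differ the opposite way by 1 or more. Dimmer probe sets were not part of this check. ERAP1, higher in TCam-2 with the probe set used, differed by -1.78 with another probe set, as given below. 196 and 228 genes had a single probe set and no such check.

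The 3 genes that mark the labels all had the difference the labels imply. SOX17, the transcription factor that marks seminoma and primordial germ cells, had 3819 units in TCam-2 and was below the floor in GCT27, NT2D1 and GCT44, so TCam-2 was at least 49.97-fold higher than GCT27. SOX2, its counterpart in embryonal carcinoma, had 18309 units in GCT27 and 391 in TCam-2, a 46.8-fold difference that was -2.62 on the log2 scale as the median over its probe sets beside -5.55 with the probe set used. NT2D1 shared the high level of SOX2 with 20575 units, and GCT44 was below the floor. DNMT3B, the de novo DNA methyltransferase of pluripotent cells, had 23760.4 units in GCT27 and 2841 in TCam-2, which is 8.36-fold. It had 11360.0 units in NT2D1 and 2377 in GCT44, so TCam-2 and GCT44 were the low lines.

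Further markers used to tell these tumours apart did not reach the 4-fold size. KIT, the receptor for stem cell factor and a standard marker of seminoma, had 1144 units in TCam-2 and 1375 in GCT27. PDPN, the podoplanin surface protein also used for seminoma, had 2831 and 2294 units. TNFRSF8, the CD30 antigen of embryonal carcinoma, had 97.8 units in TCam-2 and 360.4 in GCT27, a log2 difference of -1.88. POU5F1 had no probe set assigned to it alone and was not analysed here.

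Of 23 compared genes known from germ cells and seminoma, TCam-2 was at least 4-fold above GCT27 for 10 and at least 4-fold beneath it for 1. The list median was 0.47 on the log2 scale beside -0.04 for all genes. It was 0.07 without the filter on low values, 0.22 scaled to the spiked-in controls and 2.31 with the floor at the 70th percentile. A further 5 members, among them DAZL and DDX4, were below the floor in both lines. CXCR4, the chemokine receptor that guides migrating primordial germ cells, had 11729 units in TCam-2, 91.5 in GCT27, 439 in NT2D1 and 157 in GCT44. TCam-2 alone was high, and at 128-fold this was the widest difference measured above the floor in both lines. PRAME, an antigen of germ cells and tumours that represses retinoic acid receptor signalling, had 9713 units in TCam-2, was below the floor in GCT27 and NT2D1 and had 79.5 in GCT44. The difference from GCT27 was at least 127-fold.

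The partners of SOX17 in germ cell specification were higher in TCam-2 too. PRDM1, the repressor that shuts down somatic genes in primordial germ cells, had 2481 units in TCam-2 and 93.1 in GCT27 (26.6-fold). It had 1550.04 units in GCT44 and 177 in NT2D1, so the yolk sac tumour line shared its high level. TFAP2C, the AP-2γ factor of the same network, had 20557 units in TCam-2 and 2442 in GCT27 (8.42-fold), 1901 in NT2D1 and was below the floor in GCT44. TFAP2C was thus measurable in GCT27, whereas SOX17 was not. PRDM14, which acts in both germ cells and pluripotent cells, went the other way with 2014 units in GCT27 and 473 in TCam-2 (4.26-fold). The difference of PRDM14 lay just under the limit, at -1.98, when the arrays were centred on their medians.

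The remaining members above the size were TCL1A, CD38, TFCP2L1, KLF4 and TCL1B. TCL1A, a coactivator of the AKT kinase, had 1615 units in TCam-2 against a value below the floor in GCT27 (at least 21.1-fold). CD38, a surface ectoenzyme, had 1390.4 units in TCam-2 against a value below the floor in GCT27 (at least 18.2-fold). TFCP2L1, a factor of naive pluripotency, had 2528 units in TCam-2 against 361 in GCT27 (7.002-fold), and it was also low in NT2D1 at 84.7 units. Of other germ cell genes, NANOS3 and DDX4 were below the floor in both lines, and DND1 had 403 units in TCam-2 and 364 in GCT27.

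AP-2 and Krüppel-like factors formed a list of transcription factors with differences in 1 direction. 6 of 18 compared members were higher in TCam-2 and none was higher in GCT27, and the list median was 1.33. The median lay between 1.01 and 1.53 under the other processing choices. TFAP2A, which acts in trophoblast and surface ectoderm, had 3975 units in TCam-2 against a value below the floor in GCT27 (at least 52.01-fold). KLF4 had 10861 units in TCam-2, 1803 in GCT27, 993 in NT2D1 and 298 in GCT44 (6.02-fold). KLF5 had 4124 units in TCam-2 against 630.3 in GCT27 (6.54-fold) and KLF3 had 2693 units in TCam-2 against 399 in GCT27 (6.75-fold). The difference of KLF3 was 1.26 as the median over its probe sets. KLF11 was at the limit with 4.06-fold and fell to 1.78 on the log2 scale when the arrays were scaled to the spiked-in controls. KLF4 and KLF5, both factors of naive pluripotency, were higher in TCam-2 than in each of the other 3 lines.

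Placental genes had the largest median in favour of TCam-2 among the 38 lists, which were chosen with earlier results known. 12 of 20 compared trophoblast genes were higher in TCam-2 and 1, the chemokine receptor gene CCR7 (at least 5.18-fold), was higher in GCT27. The median was 2.66, and between 1.72 and 3.21 under the other processing choices. CGA, the common subunit of chorionic gonadotropin and the pituitary glycoprotein hormones, had 4626 units in TCam-2 and was below the floor in the other 3 lines, so it was at least 60.5-fold higher than in GCT27. GATA3, a factor that specifies trophectoderm, had 5874 units in TCam-2, 283 in GCT27, 1806 in NT2D1 and 17360.3 in GCT44. TCam-2 was 20.8-fold above GCT27, but GCT44 was the line with the highest level.

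The list also held genes of the syncytium of the placenta, and their calls depend on the floor used. ERVFRD-1, the syncytin-2 envelope gene, had 877 units in TCam-2 against a value below the floor in GCT27 (at least 11.5-fold), and GCM1, the transcription factor that activates the syncytins, had 409.6 units in TCam-2 against a value below the floor in GCT27 (at least 5.36-fold). ERVW-1, the syncytin-1 gene, had 759 units in TCam-2 against 78.7 in GCT27 (9.64-fold), but it belongs to a family of retroviral copies that its probes may share. With the floor at the 70th percentile, 252 units, their log2 differences were 1.80, 0.70 and 1.59, under the 4-fold size, and the calls of ENPEP and HAND1 of the same list were lost too. KRT7, a keratin of trophoblast and simple epithelia, had 1472 units in TCam-2 against a value below the floor in GCT27 (at least 19.3-fold), a difference that was 0.06 on the log2 scale when probe sets shared between transcripts or genes (suffix _s_at or _x_at) were left out. GATA2, which acts with GATA3, had 1036 units in TCam-2 against 233 in GCT27 (4.46-fold) but a difference of 0.15 as the median over its probe sets.

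Not all placental genes took part. The trophectoderm factors CDX2 and ELF5 and the oestrogen-producing enzyme CYP19A1 were below the floor in both lines. The placental protein genes PSG1, LGALS13 and INSL4 lay within the 4-fold size, with 115, 98.6 and 90.6 units in TCam-2. The summed intensity of the 23 members with a probe set was 54867 units in TCam-2 and 22164 in GCT27, of which TFAP2C contributed 20557 and 2442. TFAP2A and TFAP2C also stand in the list of AP-2 factors. In RNA from whole cultures, more cells of a type and more RNA per cell cannot be told apart.

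**Figure D2:**
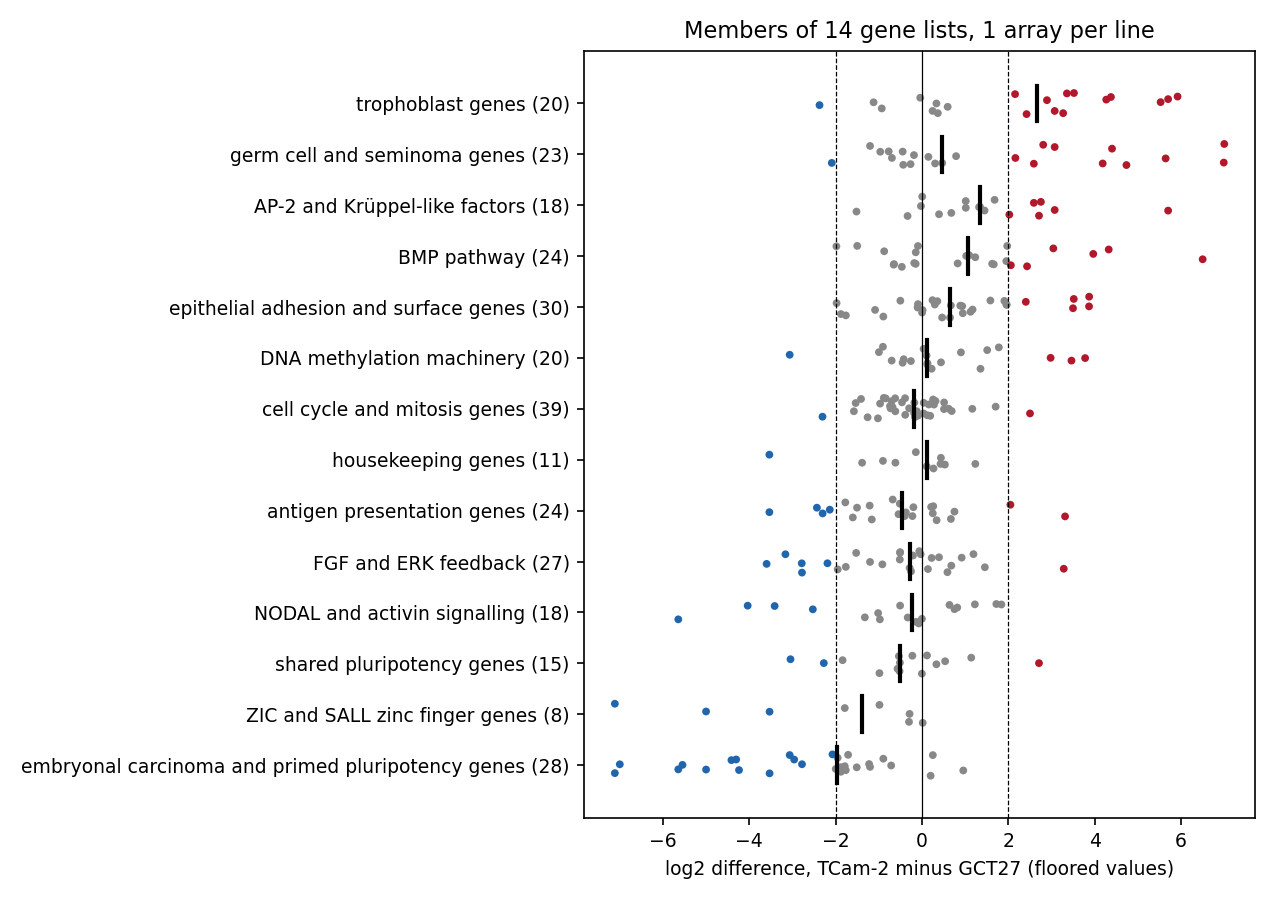
Log2 difference between TCam-2 and GCT27 (x axis) for the compared members of 14 gene lists (rows, number of compared members in parentheses); each point is a gene, red or blue where at least 4-fold higher in TCam-2 or GCT27, and black bars are list medians. Trophoblast genes lie furthest to the right with a median of 2.66 and embryonal carcinoma genes furthest to the left with -1.98, while cell cycle genes centre near 0.

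BMP signals induce the germ line in the embryo, and 6 of 24 compared genes of the BMP pathway were higher in TCam-2, with none higher in GCT27 and a median of 1.06. Without the filter on low values the median was 0, scaled to the spiked-in controls it was 0.68, and with the higher floor 1.34. The members were target genes, antagonists and a receptor. ID2, an inhibitor of basic helix-loop-helix factors induced by BMP, had 12475 units in TCam-2, 623 in GCT27, 7488 in NT2D1 and 6561 in GCT44. GCT27 was the low line for ID2, and TCam-2 was 20.03-fold above it. MSX2, a homeobox target gene, had 4515 units in TCam-2 against 289 in GCT27 (15.6-fold), and ID4 had 6035 units in TCam-2 against 733 in GCT27 (8.24-fold). As the median over its probe sets the difference of ID4 was 1.64. SOSTDC1, a secreted antagonist of BMP and WNT, had 6919.5 units in TCam-2 against a value below the floor in GCT27 (at least 90.5-fold).

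No ligand or SMAD gene of the BMP list was past the 4-fold size. The list member furthest towards GCT27 lay just within it, with a log2 difference of -1.98. BMP4 had 222 units in TCam-2 and 237 in GCT27, and SMAD5 had 2843 and 3221. The target genes did not all follow: ID1 had 21099 units in TCam-2 and 5372 in GCT27 (log2 difference 1.97), and ID3 had 4161 and 4600.1. ACVR1, a type I receptor, was 5.40-fold higher in TCam-2. BAMBI, a decoy receptor induced by the pathway, was 4.16-fold higher, and its log2 difference was 1.81 with the arrays scaled to the spiked-in controls.

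The list of embryonal carcinoma and primed pluripotency genes differed the other way. 13 of 28 compared members were higher in GCT27 and none was higher in TCam-2, with a median of -1.98 that stayed between -2.43 and -1.88 under the other processing choices. ZIC2, a zinc finger factor of primed pluripotent cells, had 10584 units in GCT27, 11603 in NT2D1 and 8268 in GCT44 and was below the floor in TCam-2. TCam-2 was the only low line, and GCT27 was at least 138-fold higher. SFRP2, a secreted WNT modulator, had 9777 units in GCT27 and 6124 in NT2D1 and was below the floor in TCam-2 and GCT44 (at least 128-fold). GDF3, a TGF-β family ligand of pluripotent cells, had 16726 units in GCT27, 5915 in NT2D1, 334 in TCam-2 and 543 in GCT44 (50.03-fold). For SFRP2 and GDF3 the yolk sac tumour line was thus on the side of TCam-2.

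Further members were of several kinds. USP44, a deubiquitinase of pluripotent cells, had 10648 units in GCT27 against 539 in TCam-2 (19.8-fold), and VSNL1, a calcium sensor, had 14619.8 units in GCT27 against 686 in TCam-2 (21.3-fold). THY1, the CD90 surface antigen, had 2334 units in GCT27 against 124 in TCam-2 (18.9-fold). JARID2, which recruits polycomb repressive complex 2, had 15277 units in GCT27 against 1963 in TCam-2 (7.78-fold), and its difference was -1.38 when probe sets shared between transcripts were left out. Of the zinc finger family to which SALL4 belongs, SALL1 had 2580.3 units in GCT27 against 80.6 in TCam-2 (32.03-fold) and SALL3 had 1884 units in GCT27 against 163 in TCam-2 (11.6-fold), while SALL4 itself had 3356 and 1695. ZIC1, by contrast with ZIC2, had 1724 units in TCam-2 and 2124 in GCT27.

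Most core genes shared by seminoma and embryonal carcinoma lay within the 4-fold size. Of 15 compared shared pluripotency genes, 1, KLF5, was higher in TCam-2 and 2 were higher in GCT27, with a median of -0.51 that lay between -0.76 and -0.03 under the other processing choices. NANOG had 22390.2 units in TCam-2 and 22428 in GCT27. L1TD1, an RNA-binding protein of pluripotent cells, had 21217 and 14635, and DPPA2 had 1908 and 1761. TERF1, a telomere-binding protein, was the member with the widest difference, with 22555 units in GCT27 against 2732 in TCam-2 (8.26-fold). ZSCAN10, a zinc finger factor of pluripotent cells, was 4.84-fold higher in GCT27, and its difference was -1.25 without probe sets shared between transcripts.

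NODAL and activin signals maintain primed pluripotency, and 4 of 18 compared genes of that pathway were higher in GCT27 and none in TCam-2. The median was -0.23, and between -0.49 and -0.10 under the other processing choices. They were ligands, an inhibitor that NODAL induces and a regulator. The ligand NODAL had 864 units in GCT27, 81.1 in TCam-2, 128 in NT2D1 and 80.5 in GCT44, so GCT27 alone was high (10.7-fold). The difference of NODAL was -1.04 as the median over its probe sets. LEFTY1, the feedback inhibitor, had 1255 units in GCT27 against a value below the floor in TCam-2 (at least 16.4-fold) and 115 units in NT2D1. GDF3, given above, is the other ligand, and DACT1, which modulates WNT and NODAL signals, was 5.77-fold higher. The receptors and SMAD genes lay within the 4-fold size: ACVR2B had 3589.8 units in TCam-2 and 3782 in GCT27, and SMAD2 had 3266 and 1939.

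Genes of FGF signalling through ERK were past the size in both directions. 5 of 27 compared members were higher in GCT27 and 1 was higher in TCam-2 (median -0.29, between -0.62 and -0.14 under the other processing choices). The ETS factors ETV1 and ETV4, induced by FGF, had 8207 units in GCT27 against 677 in TCam-2 (12.1-fold) and 575 units in GCT27 against 83.7 in TCam-2 (6.87-fold). As the median over its probe sets the difference of ETV1 was -1.78. The feedback inhibitors SPRY2 and IL17RD had 8109 units in GCT27 against 905 in TCam-2 (8.96-fold) and 8625 units in GCT27 against 1252 in TCam-2 (6.89-fold). DUSP6, an ERK phosphatase and a further feedback gene, went the other way with 744 units in TCam-2 against a value below the floor in GCT27 (at least 9.73-fold). It was higher still in the other lines, with 6375 units in NT2D1 and 10955 in GCT44, so GCT27 was the low line for DUSP6. The ligands FGF2 and FGF4 had 1423 and 791 units in GCT27 and 368 and 344 in TCam-2, within the 4-fold size. FGF11, a member of the FGF gene family that acts inside cells, was at least 4.56-fold higher in GCT27, and ETV5, the third ETS factor of this group, differed by -1.77 on the log2 scale and did not reach the size.

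The DNA methylation machinery had calls in both directions. Beside DNMT3B, which was higher in GCT27, 3 of 20 compared members were higher in TCam-2. DNMT3L, which has no catalytic activity and stimulates de novo methylation in germ cells, had 2083 units in TCam-2, 189 in GCT27 and was below the floor in NT2D1 and GCT44 (11.02-fold). TET2, which oxidises methylcytosine, had 1048 units in TCam-2, was below the floor in GCT27, and had 339.96 in NT2D1 and 574 in GCT44 (at least 13.7-fold). As the median over its probe sets the difference of TET2 was 0.55. UHRF2 had 4631 units in TCam-2 against 587 in GCT27 (7.89-fold).

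The other methylation genes lay within the 4-fold size. TET1, the main TET enzyme of pluripotent cells and germ cells, had 12664 units in TCam-2 and 4951 in GCT27, a log2 difference of 1.36, and TET3 had 1818 and 529.6. The maintenance genes leaned the other way: DNMT1 had 2171 and 4335 units (log2 difference -0.998), and UHRF1 had 1825 and 2969. DNMT3A had 3339 and 3991. The list median was 0.12 and changed sign to -0.12 when the arrays were scaled to the spiked-in controls. Of 22 compared polycomb and chromatin regulators JARID2 was the only member past the size, and EZH2 and SUZ12, core subunits of polycomb repressive complex 2, had 557 and 3952 units in TCam-2 and 891 and 6348 in GCT27.

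The insulin-like growth factor axis had wide differences in both directions. IGF1 had 4184 units in TCam-2, 81.04 in GCT27 and was below the floor in NT2D1 and GCT44 (51.6-fold). Its binding protein IGFBP3 had 9385 units in TCam-2 and 96.4 in GCT27 (97.3-fold). IGFBP2, another binding protein, had 4735 units in GCT27 against 94.7 in TCam-2 (50.005-fold) and 4855 units in NT2D1. Each line was thus high for another binding protein gene, and IGFBP5 was at least 7.96-fold higher in TCam-2. The receptor gene IGF1R had 2663 units in TCam-2 and 3625 in GCT27.

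Enzymes that reduce peroxides with glutathione differed by isoform. GPX2, the glutathione peroxidase of epithelia, had 4551 units in TCam-2, 140.1 in GCT27, 82.9 in NT2D1 and was below the floor in GCT44 (32.5-fold). GPX1, the widespread form, had 5145 units in GCT27, 16612 in NT2D1, 4056 in GCT44 and 126 in TCam-2 (40.8-fold). TCam-2 was the low line for GPX1 and the high line for GPX2. GSTA3, a glutathione transferase of steroid-making cells, had 6053 units in TCam-2 against a value below the floor in GCT27 (at least 79.2-fold), although probes may not separate all members of its gene cluster, and MGST1, a microsomal form, had 21365 units in GCT27 against 1085 in TCam-2 (19.7-fold). In all, 4 and 3 of 42 compared members were higher in TCam-2 and GCT27.

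Surface and adhesion genes of epithelia were higher in TCam-2 for 5 of 30 compared members, with none higher in GCT27 and a median of 0.66, which lay between 0.41 and 0.78 under the other processing choices. The member furthest towards GCT27 lay just within the size, at -1.98. PROM1, the CD133 antigen, had 16167 units in TCam-2 against 1104 in GCT27 (14.6-fold), with 6467 units in NT2D1. The desmosome genes DSC3 and JUP were 11.4-fold and 5.29-fold higher, the protease ST14 at least 14.6-fold and the tight junction gene CLDN4 at least 11.3-fold. For CLDN4 the difference was 0.31 as the median over its probe sets. General epithelial genes were alike: CDH1 had 17193 units in TCam-2 and 14524 in GCT27, and EPCAM had 28656 and 22389.9. SMAGP, a small transmembrane glycoprotein of epithelia outside these lists, had 25434 units in TCam-2 against 869 in GCT27 (29.3-fold).

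Matrix genes differed in both directions. 5 of 29 compared collagen genes were higher in TCam-2 and 4 in GCT27. The chains of collagen I parted, since COL1A2 had 9209.5 units in TCam-2 against 1345 in GCT27 (6.85-fold) and COL1A1 had 3982 units in GCT27 against 792 in TCam-2 (5.03-fold). Each of them lost the 4-fold size under another choice of probe sets, with log2 differences of 1.32 for COL1A2 without probe sets shared between transcripts and -0.80 for COL1A1 as the median over its probe sets. COL3A1 was at least 11.3-fold higher in TCam-2 with the probe set used and differed by 1.63 on that median. COL4A2, also higher in TCam-2, differed by 1.84 on it. With the floor at the 70th percentile COL7A1 and COL21A1, higher in GCT27, differed by -1.53 and -1.31. Among laminins, LAMA5 and LAMB1 were 6.53-fold and 5.99-fold higher in TCam-2 and LAMA2 was 10.6-fold higher in GCT27. LUM, a proteoglycan of connective tissue, had 3354 units in TCam-2 against a value below the floor in GCT27 (at least 43.9-fold) and a difference of 0.91 without shared probe sets. HAPLN1, which links hyaluronan to proteoglycans, had 9034 units in TCam-2, 148 in GCT27, 219 in NT2D1 and 3678 in GCT44 (61.003-fold).

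Genes of antigen presentation were at least 4-fold higher in GCT27 for 4 of 24 compared members and in TCam-2 for 2. B2M, which encodes β2-microglobulin, the light chain of class I, had 15177 units in GCT27, 9138 in NT2D1, 16892 in GCT44 and 1309 in TCam-2. TCam-2 was the low line, and GCT27 was 11.6-fold higher. TAP2, a subunit of the peptide transporter, was at least 5.41-fold higher in GCT27, but its difference was -0.45 as the median over its probe sets, and HLA-C had 807 units in TCam-2 and 2291 in GCT27. With the floor at the 70th percentile TAP2 differed by -0.71. HLA-DMA and PSMB8, the other members higher in GCT27, differed by -0.58 and -0.41 there. HLA-DRB1, higher in TCam-2, differed by 1.80 when scaled to the spiked-in controls. ERAP1, an aminopeptidase that trims peptides, was 9.94-fold higher in TCam-2 with the probe set used, and its direction reversed to -1.78 without shared probe sets and to -0.13 as the median over its probe sets. The antiviral gene BST2 had 2813 units in GCT27 against a value below the floor in TCam-2 (at least 36.8-fold), and 3 of 27 compared interferon-stimulated genes were higher in GCT27 against 1 in TCam-2.

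Meiosis and piRNA genes, which protect and recombine the germ cell genome, split between the lines. 4 of 17 compared members were higher in TCam-2 and 2 in GCT27, and 19 further members were below the floor in both. Most of these calls depend on the floor. At the 70th percentile TDRD9, PIWIL4 and SYCP2, higher in TCam-2, differed by 1.82, 0.57 and 0.93 on the log2 scale. TEX15, higher in GCT27, differed by -0.91 there, and the list median moved from -0.26 to 0.63. TDRD12, a helicase of the piRNA pathway, had 3535 units in TCam-2, 184 in GCT27, 3719.6 in NT2D1 and was below the floor in GCT44 (19.2-fold). HORMAD1, a protein of the meiotic chromosome axis, had 5949 units in GCT27 and was below the floor in the other 3 lines (at least 77.8-fold). Among cancer-testis genes XAGE2 was at least 37.1-fold higher in TCam-2. MAGEA6 was at least 4.82-fold higher in GCT27, but it is nearly identical to other MAGEA genes and its probes may not separate them.

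The 15 genes with the widest measured difference and the 15 with the highest level among those below the floor in the other line were taken in each direction, and most of those not yet named follow. On the side of TCam-2 the measured genes included AHNAK, a large scaffold protein (35.4-fold), the zinc finger gene ZNF22 (32.8-fold), TUSC1 (32.3-fold), the WNT carrier WLS (24.5-fold), HTATIP2 (23.8-fold), ZFHX3 (23.2-fold) and ANGPTL4, an inhibitor of lipoprotein lipase (22.9-fold). ZNF22 had 90.3 units in GCT27 and 2957, 2733 and 2873 in TCam-2, NT2D1 and GCT44, so GCT27 alone was low. WLS likewise had 156 units in GCT27 and 3822, 6708 and 6236 in the other lines. The difference of ZFHX3 was 0.50 on the log2 scale as the median over its probe sets.

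Among genes below the floor in GCT27, the RNA-binding gene RBM24 was at least 66.6-fold higher in TCam-2, UCA1, a long non-coding RNA, at least 64.7-fold, the cytochrome CYB5A at least 62.4-fold and KANK4 at least 54.4-fold. UCA1 had 4944 units in TCam-2 and was below the floor in all of the other 3 lines. ASAP2, a regulator of ARF GTPases, was at least 53.4-fold higher, the iron exporter SLC40A1 at least 46.1-fold, the prolactin receptor PRLR at least 44.3-fold and the cannabinoid receptor CNR1 at least 40.9-fold. GCT44 shared the high value of SLC40A1, with 8337 units beside 3524 in TCam-2, whereas PRLR was below the floor in NT2D1 and GCT44. The difference of CNR1 was 1.38 on the log2 scale as the median over its probe sets.

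On the side of GCT27 the widest measured difference was that of EDIL3, an integrin-binding matrix protein, with 16985 units in GCT27, 683 in NT2D1 and 248 in TCam-2 (68.4-fold). GCT44 was below the floor, and GCT27 was the highest line. As the median over its probe sets the difference of EDIL3 was -1.66. GAL, the neuropeptide galanin, had 15967 units in GCT27 against 339 in TCam-2 (47.1-fold). DPYSL3 (48.1-fold), NAP1L3 (47.3-fold), SYTL2, a partner of the GTPase RAB27 (42.1-fold), and RAB38 (24.1-fold) were also among the widest. POLR3G, the RNA polymerase III subunit of pluripotent cells, was 33.1-fold higher, VHRT 41.3-fold, VAT1L 24.8-fold and the orphan receptor GPRC5B 26.3-fold. GPRC5B had a difference of -0.99 as the median over its probe sets.

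The widest difference of all, as a limit, was that of LINC00458, a long non-coding RNA of pluripotent cells. It had 28002 units in GCT27 and 24943 in GCT44 and was below the floor in TCam-2 and NT2D1, so GCT27 was at least 366-fold above TCam-2. BEX1, a neuronal adaptor gene, had 11773 units in GCT27, 17415 in NT2D1 and 3504 in GCT44 and was below the floor in TCam-2 (at least 154-fold). TMCO1, which releases calcium from the endoplasmic reticulum, had 8099, 6702 and 15260.0 units in these lines and was below the floor in TCam-2 (at least 106-fold). The chromatin gene CECR2 (at least 81.9-fold), TMEM47 (at least 66.4-fold) and the cadherin FAT3 (at least 36.4-fold) had the same order, low in TCam-2 only. PTPRZ1, a receptor phosphatase of neural cells (at least 123-fold), and PIPOX, a peroxisomal oxidase (at least 58.8-fold), were high in GCT27 and NT2D1. The non-coding ARGLU1-DT (at least 75.2-fold) and LINC02582 (at least 56.4-fold) and the protease inhibitor TFPI2 (at least 52.1-fold) were highest in GCT27.

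Of these 30 genes in each direction, 14 higher in TCam-2 and 13 higher in GCT27 had another bright probe set, and each of these probe sets differed in the same direction by a log2 value of 1 or more. The other 16 and 17 rested on a single informative probe set.

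**Figure D3:**
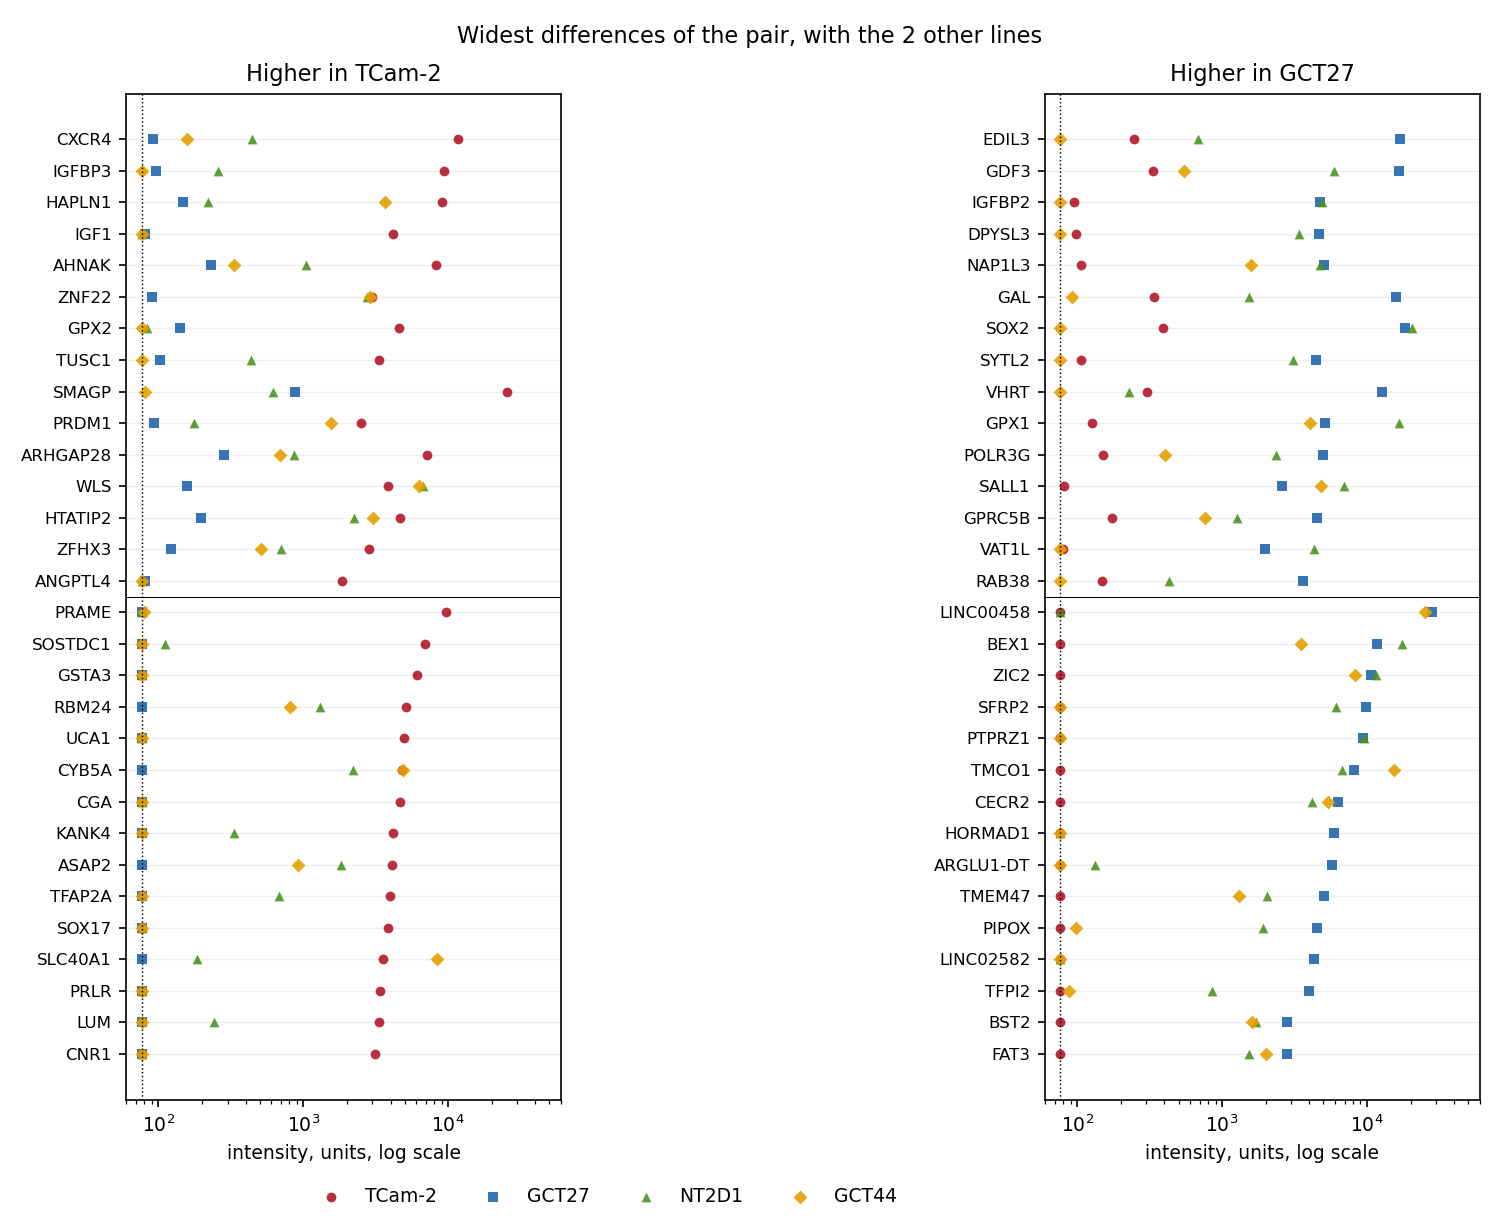
Intensity in units (x axis, log scale) of the 30 named genes higher in TCam-2 (left) and the 30 higher in GCT27 (right) in the 4 lines, 1 array each; genes above the horizontal line were measured in both lines of the pair, those beneath it were below the floor (dotted line) in the lower line. CXCR4 at 11729 units and PRAME at 9713 stand apart in TCam-2, whereas SOX2, IGFBP2 and ZIC2 are as high in NT2D1 as in GCT27.

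The values of the other lines describe which line of the pair they resemble for each gene. TCam-2 was grown in another medium than the other lines. Where TCam-2 alone was high or low, line and medium cannot be told apart. Each was placed on the side of the line of the pair to which its log2 intensity was closer. For 296 of the 535 genes higher in TCam-2 (55.3%) neither NT2D1 nor GCT44 was on the side of TCam-2, so that TCam-2 stood alone, as for CXCR4, IGFBP3, IGF1 and GPX2. For 86 genes both were on its side and GCT27 alone was low, as for ZNF22, WLS and ID2. GCT44 alone joined TCam-2 for 91 genes, among them PRDM1 and HAPLN1, and NT2D1 alone for 62, among them ZFHX3, TDRD12 and PROM1. Over all compared genes with any higher value in TCam-2, whatever its size, TCam-2 stood alone for 38.9%, and both other lines were on its side for 25.1%.

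Genes higher in GCT27 were most often shared with NT2D1. For 175 of 565 (30.97%) both other lines were on the side of GCT27 and TCam-2 alone was low, as for NAP1L3, GPX1 and SALL1. NT2D1 alone joined GCT27 for 181 genes, among them SOX2, GDF3, IGFBP2 and DPYSL3, and GCT44 alone for 60, among them EOMES. EOMES, a factor of mesendoderm, had 1876 units in GCT27, 26237 in GCT44, 238 in NT2D1 and 129.8 in TCam-2. GCT27 stood alone for 149 genes, as for EDIL3, GAL and VSNL1. Over all compared genes with any higher value in GCT27 the shares were 33.5% for both other lines on its side, 15.6% for NT2D1 alone, 22.1% for GCT44 alone and 28.7% for GCT27 alone, beside 30.97%, 32.04%, 10.6% and 26.4% of the genes at least 4-fold higher. GCT44 was on the side of GCT27 for 41.6% of the genes higher in GCT27 and 66.9% of those higher in TCam-2, beside 49.5% of all compared genes, and NT2D1 for 63.01%, 72.3% and 54.6%.

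**Figure D4:**
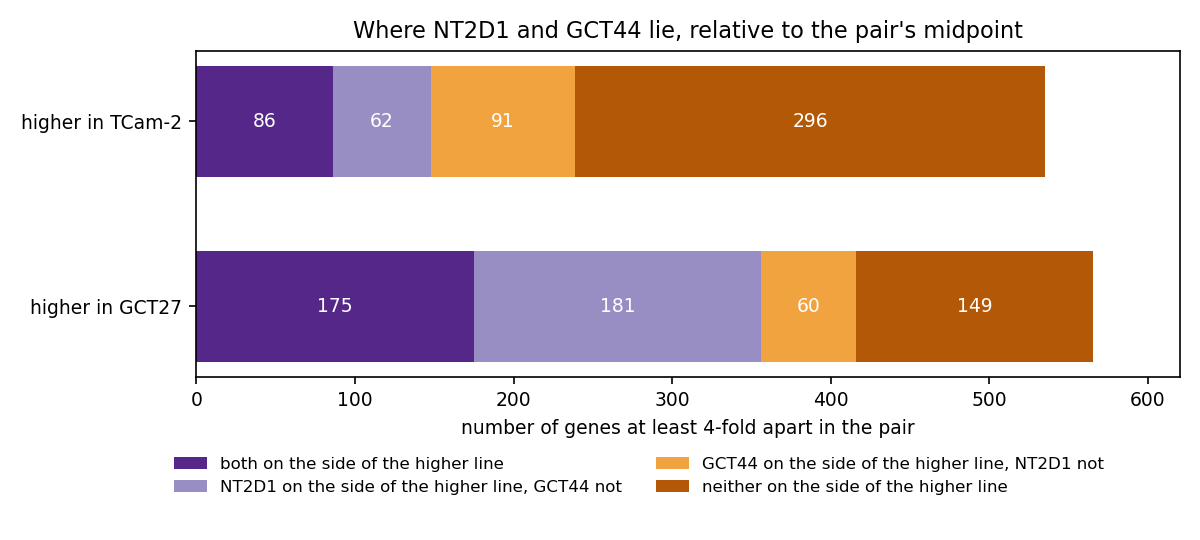
Number of genes (x axis) at least 4-fold higher in TCam-2 or in GCT27 (bars), split by whether NT2D1 and GCT44 lie closer to the higher or to the lower line of the pair on the log2 scale. Neither line joins TCam-2 for 296 of 535 genes, while at least 1 of them joins GCT27 for all but 149 of 565.

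Gene families were also read by the letters of their symbols, for the 87 families with at least 15 compared genes. 7.95% of all compared genes differed at least 4-fold in either direction. The share was 33.3% of 15 CHST carbohydrate sulfotransferase genes, 5 of which were higher in GCT27 and none in TCam-2. It was 30.0% of 30 COL genes, in both directions, and 26.7% of 15 KLF genes, all higher in TCam-2. Most of the COL calls and some of the KLF calls were lost under another processing choice, as given above. 24 families had no gene past the size, among them the ribosomal RPS, the mitochondrial ribosomal MRPL and MRPS, the nucleoporin NUP, the mediator MED and the cell division CDC genes.

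Some genes past the size lay next to each other. In the RefSeq gene order, 17 runs of at least 3 successive compared genes differed the same way, 8 in favour of TCam-2 and 9 of GCT27. Higher in TCam-2 were SDC2, CPQ and TSPYL5, the neighbours ERVFRD-1, NEDD9 and TMEM170B, and the sialyltransferases ST6GALNAC1 and ST6GALNAC2 with MXRA7. Higher in GCT27 were STAMBPL1, ACTA2, FAS and LIPA, the neighbours CYLD, SALL1 and TOX3, and HDHD5, ADA2 and CECR2. FAS, a death receptor and p53 target, had 855 units in GCT27 against 139 in TCam-2 (6.16-fold). A run of TUBB2A, TUBB2B, PSMG4 and SLC22A23 starts with nearly identical tubulin genes whose probes may not separate them. Copy number was not measured here.

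Lists of general cell functions had few members past the size, and the lists of chromosome arm 12p and of p53 targets lay above the background of 4.08% on the side of GCT27. Of 39 compared cell cycle genes 1 was higher in TCam-2 and 1 in GCT27, namely CDKN1C, an imprinted inhibitor of cyclin-dependent kinases (5.66-fold), and RB1 (4.94-fold). RB1 had a difference of -0.56 as the median over its probe sets. Of 23 glycolysis genes 1, the aldolase gene ALDOC, was higher in GCT27. Of 22 genes of chromosome arm 12p known in germ cell tumours 3 were higher in GCT27, namely GDF3, EMP1 and BCAT1, and of 27 p53 targets and apoptosis genes 3, namely FAS, TP53I3 and DDB2. None was higher in TCam-2 in these lists. For 11 housekeeping genes the median was 0.11, with B2M as the only member past the size, and it was -0.14 when scaled to the spiked-in controls. Of 18 known targets of methylation in tumours, PYCARD (at least 20.3-fold), TSPYL5 (at least 13.95-fold) and the DNA repair gene MGMT (at least 10.9-fold) were higher in TCam-2 and SFRP2 in GCT27.

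The remaining lists had few members past the size or members in both directions. Of 35 compared WNT pathway genes 3 were higher in GCT27, SFRP2 and the ligands WNT10B (at least 4.56-fold) and WNT5B (at least 4.24-fold), and none in TCam-2. This list did not hold the WNT carrier WLS or the BMP and WNT antagonist SOSTDC1, both given above as higher in TCam-2. Beside SOX17 and SOX2, SOX8 (at least 5.38-fold higher in GCT27) was the only other of 13 compared SOX genes past the size. Of 8 ZIC and SALL genes the 3 past the size were ZIC2, SALL1 and SALL3. Of 14 retinoic acid pathway genes, PRAME was higher in TCam-2 and CYP26A1, which degrades retinoic acid, was at least 9.48-fold higher in GCT27. Of 8 keratin genes KRT7 and KRT8 (4.75-fold) were higher in TCam-2 and KRT10 (5.17-fold) in GCT27. Of 8 metallothionein genes, which bind metals and are nearly identical in sequence, MT1M was at least 13.996-fold higher in GCT27. Of 21 mesoderm and mesenchyme genes 4 were higher in each line, HAND1 (at least 7.44-fold higher in TCam-2) and ACTA2 (5.89-fold higher in GCT27) among them. Of 20 laminin and integrin genes 4 were higher in TCam-2 and 2 in GCT27. As the median over their probe sets LAMA4 and ITGA9, higher in TCam-2, differed by 0.02 and 0.35. At the higher floor ITGA7, higher in GCT27, differed by -0.35.

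Of the imprinted genes, 2 and 2 of 22 compared members were higher in TCam-2 and GCT27. NAP1L5 was at least 10.5-fold higher in TCam-2, where GCT27 was the low line beside 773 units in NT2D1 and 956 in GCT44. MAGEL2 was at least 8.17-fold higher in GCT27. PHLDA2 was 4.25-fold higher in GCT27 with the probe set used, but the direction reversed to 0.32 without shared probe sets. Of 17 compared HOX genes, which pattern the body axis, 3 were higher in TCam-2, namely HOXC6, HOXB7 and HOXB3. Each was below the floor in GCT27, had 439.7, 421 and 343 units in TCam-2, and was higher still in GCT44. All 3 calls ended at the higher floor, and as the median over probe sets HOXB3 differed by 0.23 and HOXB7 by 1.97.

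The higher floor of 252 units ended the calls of 44 of the 179 genes followed one by one. Beside those already given they include CCR7, CLDN4, COL3A1, CYP26A1, DUSP6, ERAP1, ETV4, FAS, FGF11, IGFBP5, LAMA2, MAGEA6, MAGEL2, MGMT, NAP1L5, NODAL, SOX8, TAP2, WNT10B, WNT5B, ZSCAN10, WT1, GATA6, NEFM and OLIG2, each of which had an intensity under that floor in its lower line.

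Markers of other cell types gave the following values, with sums taken over all members with a probe set. Of the blood cell genes 6 were compared and none differed 4-fold, 9 were below the floor in both lines, PTPRC, CD14 and CD3E among them, and the summed intensity was 728 units in TCam-2 and 1267 in GCT27. Of the Sertoli, Leydig and fibroblast genes 12 were compared, 3 were higher in TCam-2 and 2 in GCT27, and the sums were 15543 and 7288 units. The defining genes FSHR, STAR and LHCGR were below the floor in both lines, and the members past the size were LUM, COL3A1 and COL1A2 for TCam-2 and WT1 (at least 7.70-fold) and COL1A1 for GCT27. Yolk sac genes summed to 6043 and 8190.2 units, with APOA1, TTR and the fibrinogen genes FGA, FGB and FGG below the floor in both. GATA6, a factor of primitive endoderm, was at least 10.2-fold higher in TCam-2, and its difference was 1.504 as the median over its probe sets. Neural genes summed to 8766 and 26659 units, 2 of 16 compared, NEFM and OLIG2, were higher in GCT27 (OLIG2 differed by -0.32 as the median over its probe sets), and PAX6 and SOX1 were below the floor in both. The part of other cell types in the differences between the lines was not tested.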

How the data were processed

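RNA of 4 cell lines, 1 sample each, was measured on Affymetrix U133 Plus arrays with 54675 probe sets. The deposited values are probe set intensities on a linear scale, for which the submitters' processing notes name RMA, a method whose usual output is log2. Every array had the same mean of 499.9 units after 2% of the values were trimmed at each end, which the sources used here do not explain. The log2 of the deposited intensity was then taken here. Probe sets were named through the platform annotation, with symbols updated by RefSeq: 41097 had 1 gene, 1801 had several and 11777 were not listed. For each gene the probe set with the highest mean log2 over the 4 arrays was used, and values below the floor of 76.4 units were set to it. Genes above the floor in neither line (5934) were not compared. The size rule was a log2 difference of at least 2. Named genes were the 15 widest measured differences and the 15 highest levels among limits in each direction, beside the marker genes, members of the gene lists and examples of patterns. The genes and the 38 lists, 1067 entries in all, were chosen with earlier results of these data known. The alternatives were other probe set rules, floors, scalings and size limits, and the calculation was tested on simulated data. With 1 array per line, precision is limited by the number of arrays and no test was run. Calculations used Python 3.11.15, pandas 2.3.3 and numpy 2.4.6.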

Additional observations from a re-analysis of the deposited data

How the results depend on the processing

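The numbers of genes higher in TCam-2 and in GCT27, 535 and 565, were 842 and 1033 with no floor and 329 and 308 with the floor at the 70th percentile. They were 1750 and 1928 at a log2 difference of 1 and 200 and 208 at 3. These changes follow from how the floor and the limit are built. Scaling by the spiked-in controls gave 449 and 757. The counts were 591 and 518 with arrays centred on their medians, 541 and 569 after quantile normalization and 391 and 406 as medians over probe sets. They were 404 and 447 without shared probe sets, 544 and 560 with the probe set highest over the pair, and 561 and 579 with the probe set highest in unlogged values, a choice made after seeing the data. Without the filter the counts did not move. SOX17, SOX2 and DNMT3B kept their direction and size call wherever they could be computed. DNMT3B had no probe set outside the shared ones. The direction of ERAP1 reversed to -0.13 as the median over its probe sets and to -1.78 without shared ones, and that of PHLDA2 to 0.32 and 0.32, and the cause was not tested. Of 179 genes followed one by one, 107 kept their call under all 10 alternatives that applied. The higher floor ended 44 calls, the median over probe sets 27 and the spiked-in scaling 8, among them GATA2 at 1.91 and TCL1B at 1.92. KLF11 was at 1.99 after quantile normalization. No paired analysis was possible because each line has 1 array and no result comes from a test.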

Other observations

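Probe sets with no listed gene also differed between the lines. Of 4195 such probe sets above the floor in at least 1 line, 70 (1.67%) were at least 4-fold higher in TCam-2 and 96 (2.29%) in GCT27. They are unnamed here and were not analysed further.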
